A study of Mus musculus with 18 samples.

Results

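The absorptive enterocyte genes described here are 37 genes for digestion and nutrient transport at the brush border of the small intestine, followed across gates of crypt cells that differ in the signal of a Flattop reporter. They were taken as a named list, and each was matched by its exact gene symbol in the platform annotation of the array. All 37 were measured, each by 1 probe set, out of 19938 genes with a single symbol. The study measured gene expression on 1-colour microarrays in small intestinal crypt cells of C57Bl6/J mice aged 4 months, and 6 of its 18 samples were used. These were sorted by the Fltp-Venus reporter (FVR), which follows Flattop, known as an effector of planar cell polarity, into cells with high FVR expression (2 arrays), cells with low FVR expression (2 arrays) and cells not expressing FVR, the negative gate (2 arrays). The cells of all 3 gates, the negative one included, came from FltpZV/+ mice, and 2 animals were pooled for each array. The remaining 12 samples belong to a lineage-tracing line and were not analysed here. The high and low gates together are called the reporter gates, and the absorptive genes are compared between each of them and the negative gate, and between the high and the low gate.

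Absorptive enterocytes arise from crypt progenitors and mature as they move up the villus. Their apical membrane folds into microvilli, the brush border, which carries hydrolases that finish the digestion of sugars and peptides and transporters that take up the products. Absorbed fat is rebuilt into triglyceride inside the cell, loaded onto apolipoprotein B and exported as chylomicrons, while bile acids cross the ileal cell and leave through its basal side. Crypts hold mostly stem, progenitor and Paneth cells, so the mature products of this list are known chiefly from the villus. In RNA from sorted pools, fewer cells of a type and less RNA per cell cannot be told apart.

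Values are RMA values on the log2 scale, so a difference of 1 is a doubling, and a change is given as a difference of log2 values. RMA compresses small and very large signals. The median of all probe sets lay between 4.54 and 4.74 on the 6 arrays, and 61.4% to 69.6% of genes lay above a background level of 4.23, set from receptor genes of the nose. The highest of these shares was that of high replicate 2. Of the 37 genes, 35 lay above that level on every array. Treh was below it on low replicate 2, and Slc10a2 was above it on 1 of 2 high, 0 of 2 low and 2 of 2 negative arrays. Genes were tested with limma, and a gene is called where its p adjusted over all 19938 genes was under 0.05. With 2 arrays in each gate, these p-values measure only the spread between pools of a gate, which the labels do not describe further. The general epithelial genes Epcam, Cdh1, Krt8, Krt18 and Cldn7 were above background on all arrays, and none of the 5 was called in any comparison (limma). Their median log2 difference was -0.37 in high and -0.49 in low against negative cells, and -0.39 in high against low cells. Their mean was 10.37 and 9.74 on the high arrays, 10.25 and 10.26 on the low arrays and 10.61 and 10.58 on the negative arrays.

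The start regions of the genes are shown for sets whose values are described below. Promoters, 250 bases before to 50 after a gene's start, were taken from RefSeq on GRCm38.p6 and matched for 34 of the 37 genes, with 36 promoters. They were searched on both strands for letters bound by factors of the intestinal epithelium. The letters CAAAGTCCA or CAAAGTTCA, which HNF4 can bind, occurred in 6 of the 36 promoters (16.7%), against 0.861% of all 32851 promoters in the table. A match is a description of letters and not of binding. The windows of these 6 matches are shown with 10 bases on each side and the match in capitals. For 5 of the 6 genes (all but Abcb1a) replicate arrays lay more than 1 log2 unit apart in at least 1 gate. None of the 6 was called in any comparison. Of the 34 genes with a promoter, 10 had replicates that far apart, and 20 of the 37 were called in no comparison. A wide gap between replicates also raises the standard error, which makes a call less likely.
Alpi (chr1:87101607-87101635, minus strand): tagccagggaCAAAGTCCAtctctgattt
Abcb1a (chr5:8566902-8566930, plus strand): cacttcagcaCAAAGTTCAcatgaaactc
Treh (chr9:44673152-44673180, plus strand): cctcatagccTGGACTTTGgctgacctgg
Apoa4 (chr9:46240652-46240680, plus strand): tgttctgagaCAAAGTTCAggttggtggc
Rbp2 (chr9:98490426-98490454, plus strand): acagacctgtTGAACTTTGcaaaggcaag
Slc3a1 (chr17:85028298-85028326, plus strand): cttggctggaCAAAGTCCAgccatgatta

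The letters TTTATNG, which CDX factors can bind, occurred in 12 of the 36 promoters (33.3%) and in 10.9% of all promoters, and 7 of the 16 matches in the listed genes hold TATAAA, the letters of a TATA box. The GATA letters AGATAA occurred in 9 of 36 (25%) and in 11.2% of all. The HNF1 palindrome occurred in none of the 36 and in 0.00913% of all. Matches of different motifs did not overlap each other in the promoters of these genes. Whole promoters are printed for a pair that was lower in high cells than in either other gate, Krt20 and Dpp4, and for the pair of subunits that was lower in both reporter gates, Slc51a and Slc51b. Capitals mark the CDX and GATA letters on either strand. Krt20 and Dpp4 each hold both, with the CDX letters of Krt20 at -30 from the start being CTATAAA, where a TATA box lies. Slc51a and Slc51b hold none of the 4 motifs in these windows. Abcg5 and Lct, also lower in both reporter gates, do hold GATA letters, and Abcg5 holds CDX letters too. Of the other genes called lower in high but not in low cells, Sis and Apob hold CDX letters and Mgam holds GATA letters. No match was found for Slc15a1 and Slc5a1 of that set, or for Mttp, Dgat1 and Myo1a, lower in both reporter gates. Whether the letters go with the patterns of calls was not tested.
Krt20 (chr11:99438104-99438403, minus strand): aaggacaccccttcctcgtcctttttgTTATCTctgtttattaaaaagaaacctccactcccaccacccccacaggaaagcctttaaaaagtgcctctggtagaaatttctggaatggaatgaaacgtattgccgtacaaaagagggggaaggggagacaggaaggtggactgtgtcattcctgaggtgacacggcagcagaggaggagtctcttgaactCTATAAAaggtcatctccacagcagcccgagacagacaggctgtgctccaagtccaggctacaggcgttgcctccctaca
Dpp4 (chr2:62412182-62412481, minus strand): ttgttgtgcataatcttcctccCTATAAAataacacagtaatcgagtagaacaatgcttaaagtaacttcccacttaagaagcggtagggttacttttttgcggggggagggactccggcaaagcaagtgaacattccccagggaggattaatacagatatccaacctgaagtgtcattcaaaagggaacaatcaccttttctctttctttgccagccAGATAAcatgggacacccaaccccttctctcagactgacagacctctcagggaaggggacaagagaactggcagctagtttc
Slc51a (chr16:32487830-32488129, minus strand): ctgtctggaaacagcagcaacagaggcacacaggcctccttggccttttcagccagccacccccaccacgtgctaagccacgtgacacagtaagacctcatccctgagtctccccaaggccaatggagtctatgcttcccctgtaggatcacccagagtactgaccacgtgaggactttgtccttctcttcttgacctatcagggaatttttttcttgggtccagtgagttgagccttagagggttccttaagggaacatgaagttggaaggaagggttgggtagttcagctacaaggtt
Slc51b (chr9:65422724-65423023, minus strand): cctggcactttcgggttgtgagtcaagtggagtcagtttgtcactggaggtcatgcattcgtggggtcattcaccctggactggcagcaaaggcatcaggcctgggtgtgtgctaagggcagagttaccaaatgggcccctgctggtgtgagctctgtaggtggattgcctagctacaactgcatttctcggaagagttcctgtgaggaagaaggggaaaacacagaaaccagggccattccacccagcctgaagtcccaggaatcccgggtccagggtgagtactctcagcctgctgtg

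Many enterocyte genes were lower in cells with high reporter signal than in negative cells. In high against negative cells 14 of the 37 fell and none rose, where 3.35% of all genes were called lower and 1.36% higher (4.71% in either direction). At an unadjusted p under 0.05, 28 were lower and 0 higher, where 2579 of all 19938 genes were lower and 1851 higher. The genes that fell came from every functional group: 4 of 8 brush border enzymes, 2 of 7 sugar, peptide and amino acid transporters, 3 of 6 bile acid, sterol and drug transporters, 3 of 10 lipid carriers and chylomicron genes and 2 of 6 structural and other genes. The median log2 difference over the 37 was -1.31, against 0.10 over all genes and -0.07 over the 12891 genes above background on average. With quantile normalization it was -1.02 over the 37 and 0.02 over all genes. The standard deviation of the values of all genes was 1.71 and 1.59 on the high arrays and 1.85 and 1.83 on the negative arrays. Both high arrays lay below both negative arrays for 33 of the 37, where 22.4% of all genes did so. Of the 12891 genes above background on average, 4171 did so and 5.14% were called lower. The call count was 6 with quantile normalization, 8 with array weights, and 0 without negative replicate 1 or without negative replicate 2 (limma adjusted p of the lost calls from 0.0993 to 0.259 and from 0.116 to 0.21). Without high replicate 2 it was 6 (lost calls from 0.0562 to 0.115), and without high replicate 1 it was 19, with Mttp and Slc5a1 lost (0.0503 and 0.0556). Without either low array the calls of Dgat1, Myo1a and Sis were lost (from 0.0525 to 0.0888). A gate left with 1 array is assumed to vary like the other gates.

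In low against negative cells 9 of the 37 fell and none rose, where 2.54% of all genes were called lower and 3.42% higher (5.96% in either direction). At an unadjusted p under 0.05, 16 were lower and 2 higher, where 1856 of all 19938 genes were lower and 1827 higher. Those higher of the list were Slc6a19 and Krt20. The median log2 difference was -0.74, against -0.03 over all genes. Brush border enzymes and bile acid and sterol transporters gave 3 calls each, lipid genes 2, structural genes 1, and sugar, peptide and amino acid transporters 0 of 7 (limma). Both low arrays lay below both negative arrays for 21 of the 37, where 28.5% of all genes did so, and above them for 5, where 23% did. Of the 12891 genes above background on average, 4102 lay below in this way and 3.88% were called lower. Without negative replicate 1 no call was left (limma adjusted p from 0.0618 to 0.223), and without negative replicate 2 that of Slc51a was (adjusted p = 0.0357, and from 0.0691 to 0.234 for the others). Without low replicate 2 the calls of Slc51a, Slc51b and Dgat1 were left (from 0.0833 to 0.192 for the others), and without low replicate 1 those of Abcg5, Anpep, Enpep and Myo1a were lost (from 0.0586 to 0.138).

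Between the reporter gates, in high against low cells, 5 of the 37 fell (Abcg5, Dpp4, Slc15a1, Slc6a19 and Krt20) and none rose, where 3.89% of all genes were called lower and 1.01% higher (4.91% in either direction). At an unadjusted p under 0.05, 11 were lower and 2 higher, where 2399 of all 19938 genes were lower and 2103 higher. The median log2 difference was -0.39, against 0.13 over all genes. Both high arrays lay below both low arrays for 13 of the 37, where 20.4% of all genes did so. Of the 12891 genes above background on average, 3689 did so and 5.79% were called lower. The call of Abcg5 was lost without any 1 array but high replicate 1 (adjusted p up to 0.198), and those of Slc15a1 and Slc6a19 without low replicate 1 (limma adjusted p = 0.0536 and 0.0883). The call of Dpp4 was lost without low replicate 2 (adjusted p = 0.0507).

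**Figure D1:**
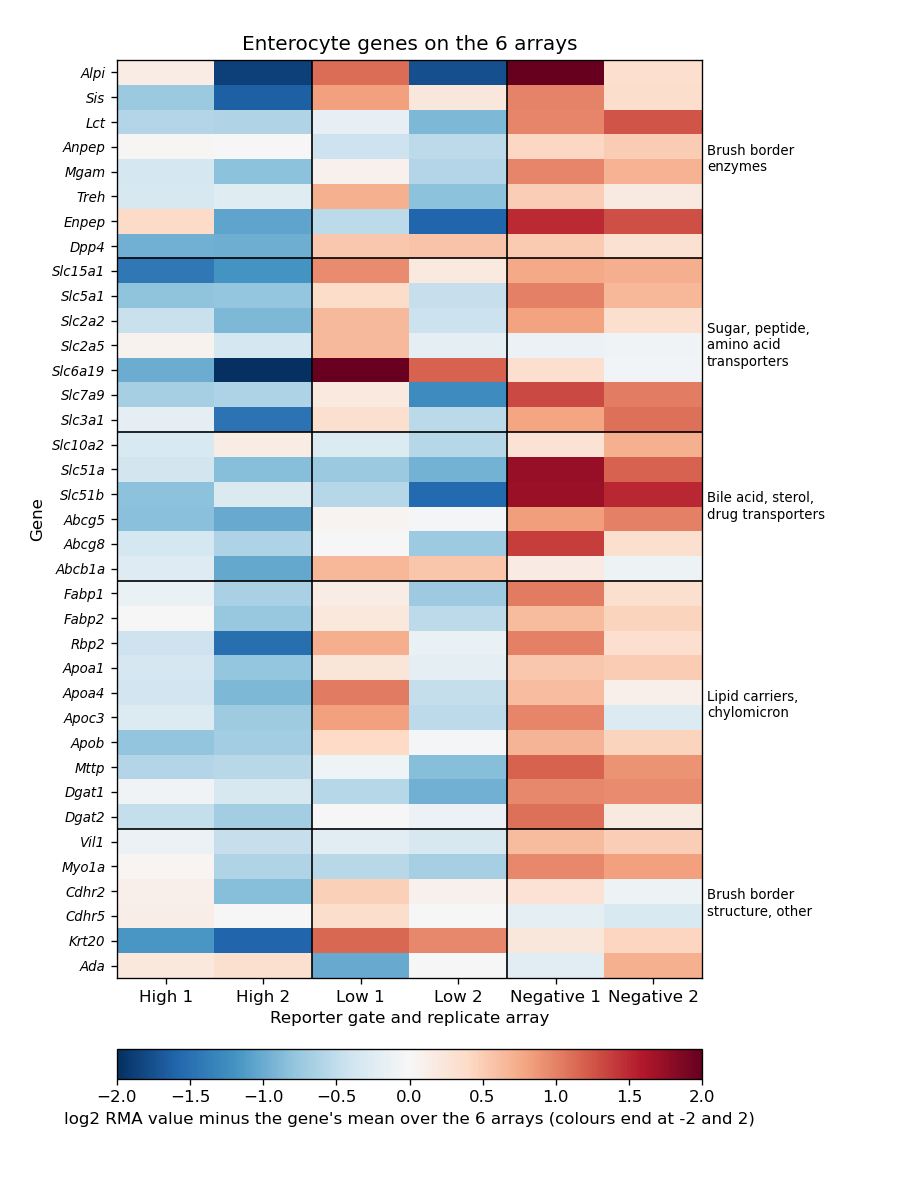
Each row is 1 of the 37 enterocyte genes and each column 1 array, with high, low and negative gates from left to right. Colour gives the log2 RMA value minus the gene's mean over the 6 arrays, from -2 (blue) to 2 (red). Most rows are red in the negative columns and blue in the high columns, and Slc6a19, Krt20 and Abcb1a are highest in the low columns.

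Among the brush border enzymes, lactase was lower in both reporter gates. Lct, which splits milk sugar, read 6.00 and 5.99 on the high arrays, 6.42 and 5.69 on the low arrays and 7.56 and 7.85 on the negative arrays. Both reporter gates lay wholly below the negative gate. Lct fell by 1.71 ± 0.27 (SE) in high cells (limma adjusted p = 0.0237) and by 1.65 ± 0.27 in low cells (adjusted p = 0.019), and high and low cells differed by -0.06, with a 95% interval from -0.71 to 0.58. Without high replicate 2 the first of these calls was lost (adjusted p = 0.062).

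The disaccharidases Sis and Mgam, which release glucose from sucrose and starch fragments, fell in high cells. Sis read 8.80 and 7.91 on the high arrays, 10.37 and 9.77 on the low arrays and 10.54 and 9.90 on the negative arrays. High cells stood below both other gates, while the low and negative arrays overlapped. Sis fell by 1.87 ± 0.38 against negative cells (limma adjusted p = 0.0442), and was 1.72 ± 0.38 lower than in low cells without passing the threshold (adjusted p = 0.0545). Mgam read 9.45 and 8.98 on the high arrays, 9.88 and 9.22 on the low arrays and 10.78 and 10.50 on the negative arrays. Mgam fell by 1.43 ± 0.29 in high cells (adjusted p = 0.0442), and its difference in low cells was -1.09 ± 0.29 (adjusted p = 0.0843). The negative arrays were the highest for Mgam, and the high and low arrays overlapped. The calls of Sis and Mgam in high cells were lost with quantile normalization (adjusted p = 0.0801 and 0.101) and with array weights (adjusted p = 0.0617 and 0.0692). Treh, which splits trehalose, read 4.58 and 4.66 in high cells, 5.60 and 4.08 in low cells and 5.38 and 5.07 in negative cells, close to background, and was not called.

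Of the 3 peptidases, Enpep and Anpep were called against negative cells in low cells, and Dpp4 in high cells. Enpep, aminopeptidase A, read 8.12 and 6.68 on the high arrays, 7.20 and 6.14 on the low arrays and 9.22 and 9.02 on the negative arrays. It fell by 2.45 ± 0.52 in low cells (limma adjusted p = 0.0415), and its -1.72 ± 0.52 in high cells was not called (adjusted p = 0.116). Both gates were below the negative arrays, and the high pair differed by 1.43. Anpep, aminopeptidase N, read 11.41 and 11.39 on the high arrays, 10.96 and 10.85 on the low arrays and 11.79 and 11.88 on the negative arrays. Its replicates were close, and it fell by 0.94 ± 0.18 in low cells (adjusted p = 0.0283), with -0.44 ± 0.18 in high cells (adjusted p = 0.206). For neither gene was the difference between high and low cells called (adjusted p = 0.413 for Enpep and 0.167 for Anpep).

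Dpp4, which trims dipeptides from peptides and incretin hormones and is also a surface protein of T cells, fell in high cells. It read 7.83 and 7.82 on the high arrays, 9.34 and 9.37 on the low arrays and 9.32 and 9.11 on the negative arrays. High cells alone were low, and the low arrays stood just above the negative ones. Dpp4 fell by 1.39 ± 0.18 against negative cells (limma adjusted p = 0.0166) and by 1.53 ± 0.18 against low cells (adjusted p = 0.00631). Low and negative cells differed by 0.14, with a 95% interval from -0.29 to 0.57.

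Alpi, intestinal alkaline phosphatase, had the widest gap between replicates of the list in every gate. It read 9.28 and 7.26 on the high arrays, 10.24 and 7.38 on the low arrays and 11.15 and 9.47 on the negative arrays. Replicate 1 was higher than replicate 2 in every gate (replicate 2 minus replicate 1 of -2.03 in high, -2.86 in low and -1.68 in negative cells). The difference of -2.04 ± 1.07 in high against negative cells was among the largest of the list and was not called (limma adjusted p = 0.308). Mouse has a close relative of Alpi, Akp3, and whether the probe set tells their transcripts apart was not checked.

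Among the nutrient transporters, the peptide transporter and a neutral amino acid transporter separated high from low cells. Slc15a1, the proton-coupled transporter of di- and tripeptides, read 5.99 and 6.23 on the high arrays, 8.37 and 7.61 on the low arrays and 8.17 and 8.14 on the negative arrays. The high arrays alone were low. Slc15a1 fell by 2.04 ± 0.28 against negative cells (limma adjusted p = 0.0172) and by 1.88 ± 0.28 against low cells (adjusted p = 0.014), while low and negative cells differed by -0.17, with a 95% interval from -0.82 to 0.49. Slc6a19, the sodium-coupled carrier of neutral amino acids, read 6.42 and 4.96 on the high arrays, 9.39 and 8.59 on the low arrays and 7.75 and 7.35 on the negative arrays. The 3 gates did not overlap, in the order low, negative, high. Slc6a19 was 9.85-fold lower in high than in low cells (log2 change -3.30 ± 0.50, adjusted p = 0.0151), the largest difference of any listed gene. Neither its 1.44 ± 0.50 in low against negative cells (adjusted p = 0.173) nor its -1.86 ± 0.50 in high against negative cells (adjusted p = 0.0891) was called. The first of these was called without either high array (adjusted p = 0.0489), and the second without high replicate 1 (adjusted p = 0.0225).

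Of the sugar transporters, the glucose carrier of the brush border fell in high cells. Slc5a1, the sodium-coupled glucose transporter, read 7.51 and 7.54 on the high arrays, 8.68 and 7.86 on the low arrays and 9.33 and 8.99 on the negative arrays. The gates did not overlap, and Slc5a1 fell by 1.63 ± 0.30 in high against negative cells (limma adjusted p = 0.0329). The call was lost with quantile normalization (adjusted p = 0.082) and with array weights (adjusted p = 0.0613). Slc2a2, the basolateral glucose carrier, read 5.44 and 4.99 on the high arrays, 6.54 and 5.46 on the low arrays and 6.70 and 6.21 on the negative arrays. It lay lowest in high cells without a call (-1.24 ± 0.38 against negative cells, adjusted p = 0.123). Slc2a5, the fructose carrier, ranged from 5.91 to 6.92 over the 6 arrays, and high and negative cells differed by -0.05, with a 95% interval from -0.77 to 0.68.

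Slc3a1 and Slc7a9 encode the heavy and light chains of the carrier of cystine and dibasic amino acids, and neither was called. Slc3a1 read 6.39 and 5.12 on the high arrays, 6.91 and 6.05 on the low arrays and 7.38 and 7.70 on the negative arrays. Slc7a9 read 6.10 and 6.15 on the high arrays, 6.97 and 5.51 on the low arrays and 8.09 and 7.80 on the negative arrays. Both were highest on the negative arrays, with no overlap. Their log2 differences in high against negative cells were -1.79 ± 0.46 and -1.82 ± 0.44 (limma adjusted p = 0.0816 and 0.0689).

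The largest falls among the genes called in both reporter gates were those of the basolateral bile acid exporter. Its subunits are encoded by Slc51a and Slc51b, on different chromosomes. Slc51a read 8.37 and 7.88 on the high arrays, 7.99 and 7.79 on the low arrays and 10.48 and 9.91 on the negative arrays. Slc51b read 6.36 and 6.89 on the high arrays, 6.61 and 5.62 on the low arrays and 8.91 and 8.69 on the negative arrays. For both subunits each reporter-positive array was well below each negative array. Slc51a fell 4.20-fold in high cells (log2 change -2.07 ± 0.27, limma adjusted p = 0.0167) and 4.93-fold in low cells (-2.30 ± 0.27, adjusted p = 0.00607). Slc51b fell 4.52-fold in high cells (-2.18 ± 0.35, adjusted p = 0.0245) and 6.43-fold in low cells (-2.68 ± 0.35, adjusted p = 0.00901). High and low cells differed by 0.23 for Slc51a, with a 95% interval from -0.41 to 0.88, and by 0.51 for Slc51b, with an interval from -0.33 to 1.35. With quantile normalization Slc51b lost its call in high cells (adjusted p = 0.0587). The apical carrier Slc10a2, which brings bile acids into ileal cells, ranged from 3.53 to 4.81 over the 6 arrays and was not called.

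Abcg5 and Abcg8 are neighbouring genes on chromosome 17 that encode the partner subunits of the sterol exporter. Both were highest in negative cells, and only Abcg5 was called. Abcg5 read 5.25 and 5.08 on the high arrays, 6.15 and 6.05 on the low arrays and 6.92 and 7.10 on the negative arrays. Its replicates were close and the gates stood apart in steps, so that Abcg5 was the one gene of the list called in all 3 comparisons. It fell by 1.84 ± 0.18 in high against negative cells (limma adjusted p = 0.00931), by 0.91 ± 0.18 in low against negative cells (adjusted p = 0.0372) and by 0.93 ± 0.18 in high against low cells (adjusted p = 0.0404). The last call was also lost with an intensity trend, quantile normalization, array weights and without the negative gate (adjusted p from 0.0598 to 0.0976), and that in low cells with quantile normalization (adjusted p = 0.0527), with an intensity trend (adjusted p = 0.0803) and without any 1 array of the low or negative gate. Abcg8 read 6.64 and 6.37 on the high arrays, 6.99 and 6.27 on the low arrays and 8.38 and 7.31 on the negative arrays, was highest in negative cells and was not called. Its difference against negative cells was -1.34 ± 0.40 in high cells (adjusted p = 0.113) and -1.22 ± 0.40 in low cells (adjusted p = 0.15). The difference between the partners was not tested. Abcb1a, the drug efflux pump, was highest on the low arrays and not called. It differed by -1.26 ± 0.28 between high and low cells (adjusted p = 0.0566).

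**Figure D2:**
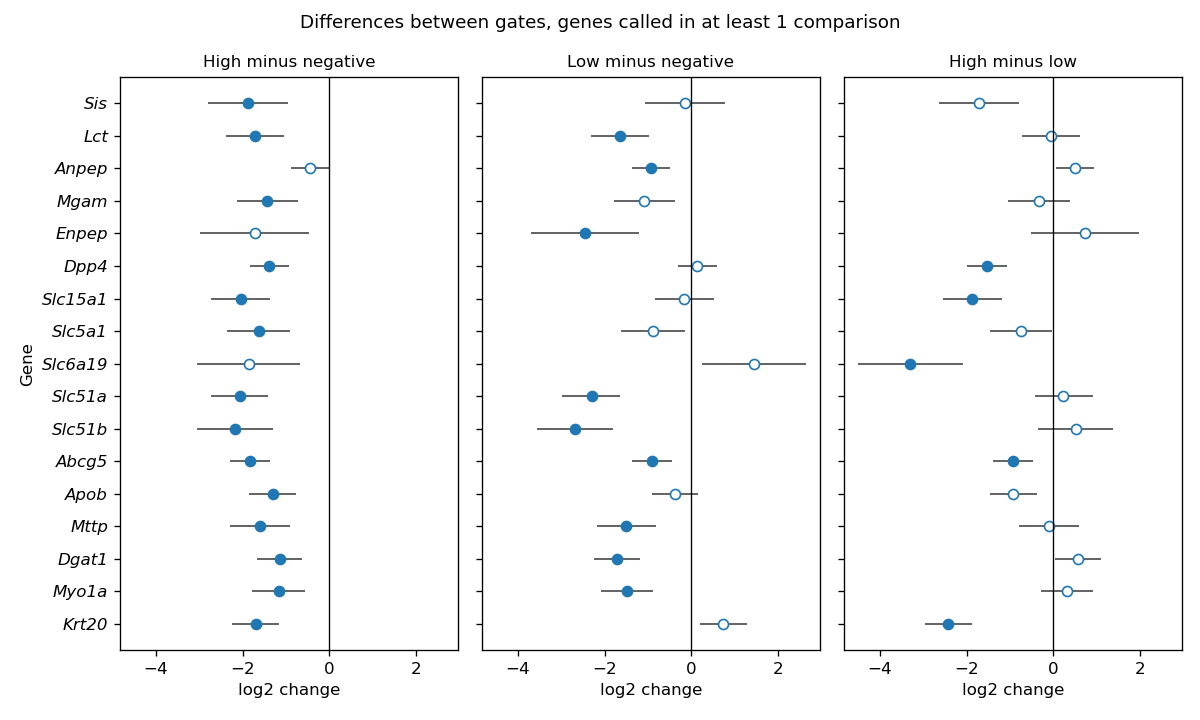
Points give the log2 change of the 17 genes called in at least 1 comparison, in high minus negative, low minus negative and high minus low cells, with 95% limma intervals, and filled points are called. Slc51a and Slc51b lie near -2 or below in both comparisons with negative cells, while Dpp4 and Krt20 lie left of 0 only where high cells enter.

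Of the 10 lipid genes, Mttp and Dgat1 fell in both reporter gates. Mttp, the transfer protein that loads lipid onto apolipoprotein B, read 8.28 and 8.31 on the high arrays, 8.78 and 8.02 on the low arrays and 10.04 and 9.76 on the negative arrays. Dgat1, which makes triglyceride, read 8.46 and 8.22 on the high arrays, 7.96 and 7.58 on the low arrays and 9.50 and 9.48 on the negative arrays. Both genes were highest on the negative arrays, with no overlap with either other gate. Mttp fell by 1.60 ± 0.28 in high cells (limma adjusted p = 0.0291) and by 1.50 ± 0.28 in low cells (adjusted p = 0.0276). Dgat1 fell by 1.15 ± 0.21 in high cells (adjusted p = 0.0332) and by 1.72 ± 0.21 in low cells (adjusted p = 0.00658). Dgat2, its unrelated counterpart, differed by -1.22 ± 0.31 in high cells without a call (adjusted p = 0.0797). With quantile normalization the calls of Mttp and Dgat1 in high cells were lost (adjusted p = 0.0747 and 0.0876), as they were with array weights (adjusted p = 0.0549 and 0.0527).

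Apob, the structural protein of chylomicrons, read 7.46 and 7.55 on the high arrays, 8.65 and 8.22 on the low arrays and 8.93 and 8.69 on the negative arrays. The high arrays stood below the other 4. Apob fell by 1.31 ± 0.22 in high against negative cells (limma adjusted p = 0.0261), with -0.93 ± 0.22 against low cells (adjusted p = 0.0653). The first was not called with quantile normalization (adjusted p = 0.0784). Apoa1, Apoc3 and Apoa4 are direct neighbours on chromosome 9, and none of these apolipoprotein genes was called. Apoa1 read 10.16 and 9.73 on the high arrays, 10.74 and 10.31 on the low arrays and 11.04 and 11.01 on the negative arrays, in steps without overlap, and its -1.08 ± 0.24 in high against negative cells was near the threshold (adjusted p = 0.0537). Apoa4 read 9.73 and 9.22 on the high arrays, 11.16 and 9.64 on the low arrays and 10.74 and 10.22 on the negative arrays. Apoc3 read 8.53 and 8.09 on the high arrays, 9.62 and 8.28 on the low arrays and 9.78 and 8.54 on the negative arrays. For Apoa4 and Apoc3 the low pair spanned 1.53 and 1.34, more than the distance between the means of low and negative cells.

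The cytosolic carriers of fatty acids and retinol were all lower in high cells than in negative cells without a call. Rbp2, which carries retinol, read 10.25 and 9.15 on the high arrays, 11.39 and 10.52 on the low arrays and 11.66 and 10.99 on the negative arrays. Its difference in high against negative cells was -1.62 ± 0.45 (limma adjusted p = 0.102). Fabp1 and Fabp2, the liver and intestinal fatty acid binding proteins, differed by -1.08 ± 0.38 and -0.91 ± 0.34 in the same comparison (adjusted p = 0.164 and 0.177). The high arrays of all 3 carriers lay below the negative arrays.

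Of the structural genes of the brush border, Myo1a fell in both gates. Myo1a, the motor that ties the membrane to the actin core of microvilli, read 8.75 and 8.12 on the high arrays, 8.16 and 8.06 on the low arrays and 9.67 and 9.54 on the negative arrays. It fell by 1.17 ± 0.25 in high cells (limma adjusted p = 0.0485) and by 1.49 ± 0.25 in low cells (adjusted p = 0.019), and every reporter-positive array was below the negative ones. The call in high cells was also lost with an intensity trend (adjusted p = 0.0636), with a robust prior (adjusted p = 0.0503), with array weights (adjusted p = 0.0549) and with quantile normalization (adjusted p = 0.108). Vil1, villin, which bundles that core, differed by -0.85 ± 0.20 in high cells and -0.83 ± 0.20 in low cells (adjusted p = 0.0661 and 0.0649). Cdhr2 and Cdhr5, protocadherins that link the tips of microvilli, were not called, and Cdhr5 was the only listed gene with both high arrays above both negative arrays. Its difference was 0.31, with a 95% interval from -0.17 to 0.78. Ada, which deaminates adenosine, was not called and differed by 0.03 between high and negative cells, with an interval from -0.94 to 0.99.

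Krt20, a keratin of differentiated villus cells, gave the smallest p of the list between the reporter gates. It read 8.39 and 7.97 on the high arrays, 10.70 and 10.52 on the low arrays and 9.78 and 9.98 on the negative arrays. The 3 gates did not overlap, with low cells highest and high cells lowest. Krt20 fell 5.40-fold in high against low cells (log2 change -2.43 ± 0.22, limma adjusted p = 0.00216), and by 1.70 ± 0.22 in high against negative cells (adjusted p = 0.0164). Its 0.73 ± 0.22 in low against negative cells was not called (adjusted p = 0.12), except with array weights (adjusted p = 0.0444).

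The calls formed sets by gate. Lower in both reporter gates were 7 genes: Lct, Slc51a, Slc51b, Abcg5, Mttp, Dgat1 and Myo1a. This is 7 of 37, where 1.26% of all genes were called lower in both comparisons, which share the negative arrays. Called lower in high but not in low cells were 7 genes, Sis, Mgam, Dpp4, Slc15a1, Slc5a1, Apob and Krt20, of which Dpp4, Slc15a1 and Krt20 also fell in high against low cells. For Sis, Mgam, Slc5a1 and Apob that difference was not called (limma adjusted p from 0.0545 to 0.49). Anpep and Enpep were called in low cells alone, and 20 of the 37 were called in no comparison. The comparisons of high and of low cells share the negative arrays, and their values are given side by side for that reason.

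The arrays of a gate differed in these genes more than in most. Replicate 2 was lower than replicate 1 for 28 of the 37 genes among high, 35 among low and 29 among negative cells, where 43.6%, 48% and 47.3% of all genes were lower. The median difference, replicate 2 minus replicate 1, was -0.42 among high, -0.73 among low and -0.24 among negative cells, against 0.07, 0.01 and 0.02 over all genes. In 21 of the 37 genes (56.8%) replicate 2 was lower in all 3 gates, as in 11.6% of all genes. Alpi, Rbp2, Sis, Fabp1, Apoa4 and Apoc3 were among them. The labels give no pool or day that replicates of a number would share.

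Arrays of a gate lay more than 1 log2 unit apart in at least 1 gate for 11 of the 37 (29.7%), as for 10.5% of all genes. These were Alpi, Treh, Enpep, Slc2a2, Slc6a19, Slc7a9, Slc3a1, Abcg8, Rbp2, Apoa4 and Apoc3, and in each such pair replicate 1 was the higher. The low gate held 7 such pairs, the high gate 5 and the negative gate 3. Enpep and Slc6a19 of these 11 were called in a comparison. Ada went the other way, with replicate 2 higher by 0.11 in high, 0.99 in low and 0.93 in negative cells. Genes with close replicates in every gate were Anpep, Dpp4 and Abcg5, with no pair more than 0.21 apart.

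**Figure D3:**
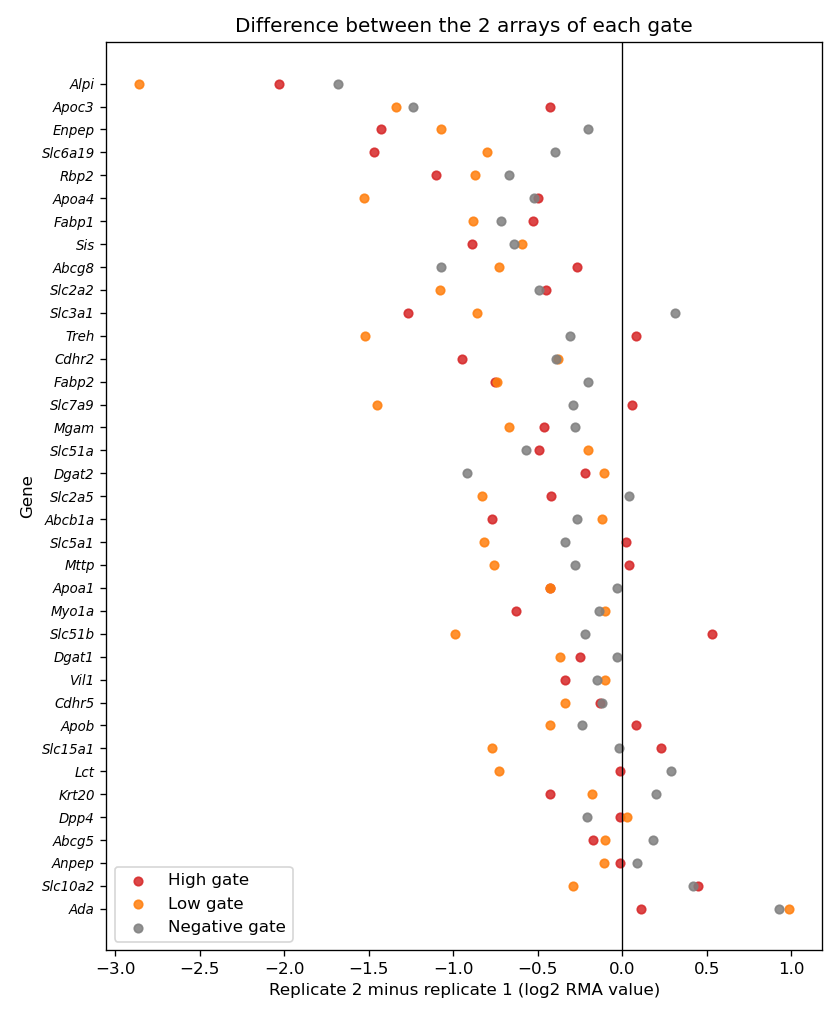
Each point is the log2 RMA value of replicate 2 minus that of replicate 1 for 1 gene in the high, low or negative gate, with genes ordered by the mean of their 3 differences. Most points lie left of 0, furthest for Alpi (-2.03 in high, -2.86 in low and -1.68 in negative cells), and Ada lies right of 0 in all gates.

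The mean over the 37 genes was 7.90 and 7.48 on the high arrays, 8.54 and 7.88 on the low arrays and 9.07 and 8.80 on the negative arrays, so that low replicate 2 fell within the range of the high arrays. Markers of some other cell types differed between the gates. Of all genes, 3.35% were called lower and 1.36% higher in high against negative cells. In low against negative cells these shares were 2.54% and 3.42%. The mean over 11 Paneth genes was 12.19 and 11.83 in high cells, 11.22 and 11.43 in low cells and 8.89 and 8.52 in negative cells, and 9 of the 11 rose in high and 10 in low against negative cells. All 12 enteroendocrine genes rose in low against negative cells, 1 of 12 rose in high against negative cells, and 5 of the 12 were above background on every array. Cycling genes fell in both reporter gates, 5 of 6 in each. The tuft, goblet, stem and stromal lists gave few calls against negative cells. None of 6 tuft genes was called, and of 8 goblet genes 1 fell in each reporter gate and 1 rose in high cells. Of 7 stem genes 2 fell in low cells and 1 rose in high cells, and of 6 stromal genes 1 rose in low cells. Of 5 plasma and mast cell genes, 3 fell in each reporter gate, with a list mean of 3.95 and 4.25 in high cells, 4.60 and 4.13 in low cells and 6.25 and 6.23 in negative cells. Only 1 of these 5 was above background on every array. Jchain, of plasma cells, fell by 3.23 ± 0.19 in high cells and by 2.91 ± 0.19 in low cells (limma adjusted p = 0.0017 and 0.000725). The part of these cells in the enterocyte differences was not tested.

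Lymphocyte genes were lower in high than in low cells, as Abcg5, Dpp4, Slc6a19, Slc15a1 and Krt20 were. The mean over 7 of them, including Ptprc, Cd3g and Cd8a, was 6.90 and 6.94 in high cells, 10.55 and 10.54 in low cells and 8.86 and 9.00 in negative cells. All 7 fell in high against low cells, where 3.89% of all genes were called lower. All 7 were above background on every array, high ones included. Against negative cells 6 of the 7 rose in low cells, where 3.42% of all genes were called higher. In high cells all 7 fell, where 3.35% of all genes were called lower. The median log2 difference of the 7 in low against negative cells was 1.68. In that comparison it was -0.91 for Abcg5, 0.14 for Dpp4, 1.44 for Slc6a19, -0.17 for Slc15a1 and 0.73 for Krt20. The enteroendocrine mean was 6.57 and 5.90 in high cells, 10.93 and 10.81 in low cells and 5.01 and 4.82 in negative cells. The part of either cell type in the differences of Abcg5, Dpp4, Slc6a19, Slc15a1 and Krt20 was not tested.

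**Figure D4:**
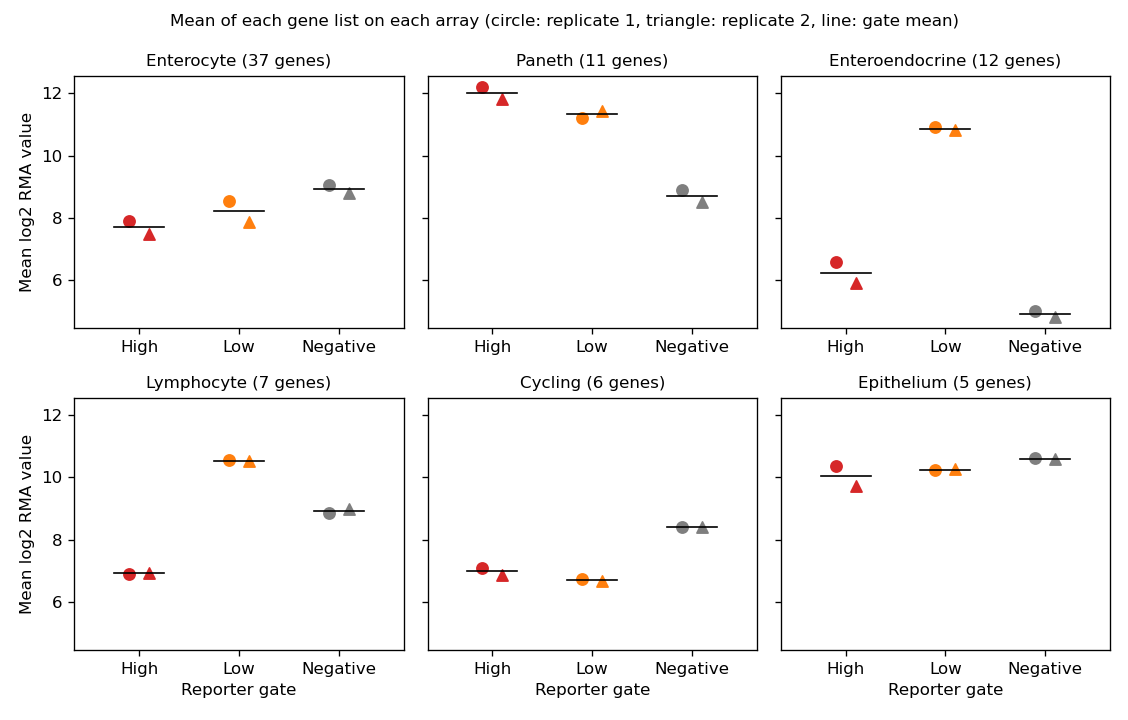
Panels give the mean log2 RMA value of the 37 enterocyte genes and of marker lists for Paneth, enteroendocrine, lymphocyte, cycling and general epithelial cells on each array, by gate (circle, replicate 1; triangle, replicate 2; line, gate mean). Enterocyte means are 7.90 and 7.48 in high cells and 9.07 and 8.80 in negative cells, while lymphocyte means are highest in low cells.

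Further genes of the absorptive programme, 121 outside the 37 in 6 lists, were lower more often than higher. In high against negative cells 23 of the 121 fell and 1 rose (median log2 difference -0.84), where 3.35% of all genes were called lower and 1.36% higher. In low against negative cells 22 fell and 4 rose (median -0.56), where 2.54% of all genes were called lower and 3.42% higher. By list, calls lower and higher in high cells were 2 and 0 of 22 transcription factors, 4 and 0 of 18 lipid uptake genes, 5 and 1 of 15 peptidases and ectoenzymes, 6 and 0 of 29 solute transporters, 2 and 0 of 24 brush border structure genes and 4 and 0 of 13 villus tip genes. Mogat2, which rebuilds fat from monoacylglycerol, fell by 2.12 ± 0.24 in high cells (limma adjusted p = 0.0116), a call lost without either negative array (adjusted p up to 0.119). Among the genes named from these lists, those that fell in low cells and kept their call without any single array were Otc, a urea cycle gene, Myo1d, a brush border motor, and Slc7a7, a basolateral amino acid carrier. They fell by 2.46 ± 0.19, 2.14 ± 0.20 and 2.09 ± 0.25 (adjusted p = 0.00162, 0.00322 and 0.00606).

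Against this direction, 4 of the 121 genes rose in low against negative cells: Nt5e, Scarb1, Slc36a1 and Prdm1. Slc36a1, of the solute transporters, rose by 1.59 ± 0.20 (limma adjusted p = 0.0075). Prdm1, of the transcription factors, rose by 1.04 ± 0.17 (limma adjusted p = 0.0197). The calls of Slc36a1 and Prdm1 were lost without either negative array. Nt5e, an ectoenzyme that makes adenosine, read 4.37 and 4.92 on the high arrays, 7.88 and 8.09 on the low arrays and 4.94 and 5.46 on the negative arrays. Scarb1, a receptor for high-density lipoprotein, read 4.77 and 4.75 on the high arrays, 7.40 and 7.64 on the low arrays and 4.96 and 4.87 on the negative arrays. The low arrays alone were high for both. Nt5e rose by 2.79 ± 0.27 (limma adjusted p = 0.0034) and Scarb1 by 2.60 ± 0.18 (adjusted p = 0.00109) in low against negative cells, and both fell in high against low cells, by 3.34 ± 0.27 (adjusted p = 0.00158) and 2.76 ± 0.18 (adjusted p = 0.000805). Over the 121 genes, 8 fell and 6 rose in high against low cells (median -0.06), where 3.89% of all genes were called lower and 1.01% higher. Lymphocyte and enteroendocrine means were also highest in low cells, and their part in these differences was not tested.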

How the data were processed

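Crypt cells from small intestine were profiled on 1-colour arrays, and 6 of 18 samples were used, 2 for each of the 3 gates, grouped by their titles. The columns of the other 12 samples were not used here. The values deposited by the authors are log2 RMA values made with Affymetrix Expression Console 1.3.0.187, per the submitters' processing notes. How background and summarisation were set, and which arrays were normalized together, is not stated there. Of 35556 probe sets, 21789 had a single symbol, 1621 had several and 12146 were unlisted. Gene IDs matched RefSeq for 21698, and the probe set of highest mean stood for a gene with several, which left 19938 genes. The background level is the 95th percentile of 1207 olfactory, vomeronasal and trace amine receptor genes.

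limma 3.58.1 (lmFit, eBayes) in R 4.3.3 fitted the 6 arrays with 3 gate means and 3 residual degrees of freedom. The p-values are two-sided and adjusted by Benjamini-Hochberg over all 19938 genes. Standard errors are those of limma. The fit was tested on simulated data. The number of arrays limits the precision. All 37 listed genes are named, with values on every array for those called or with replicates over 1 log2 unit apart, and at most the 2 genes of smallest p in each direction from wider lists. Values of Apoa1, Dgat2, Fabp1, Fabp2, Vil1, Cdhr2, Cdhr5, Ada, Slc2a5, Slc10a2 and Abcb1a fall outside that rule and were chosen after they were seen. The members and lists were chosen with earlier results of these data known. Alternatives covered the prior, the arrays fitted, dim genes, probe sets, scaling, array weights, the replicate number and each array left out. Plots were made with Python 3.11.15 and matplotlib 3.10.9.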

Additional observations from a re-analysis of the deposited data

How the results depend on the processing

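Of 1662 values of single enterocyte genes under the alternatives, 1462 kept direction and side of the threshold, 107 lost the call, 49 gained it and 44 changed sign, none of these being called before or after. For high against negative cells the number of the 37 called lower was 14, against 6 with quantile normalization, 8 with array weights and 23 with the replicate number as a block, and 0 to 19 when 1 array was left out. For low against negative cells it was 9, and 0 to 10 when 1 array was left out, and the number called higher was 0, against 1 with array weights, 1 with the replicate block, 1 with only the gates compared and 0 to 1 when 1 array was left out. For high against low cells 5 were called lower, and 2 to 7 when 1 array was left out. The cause was not tested, and fewer arrays enter where one is left out.

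Over all genes, those called lower in high against negative cells numbered 667, against 297 with quantile normalization, 417 with array weights, 377 with only the gates compared and 1 to 1318 when 1 array was left out, and those higher 272, against 12 to 601. In low against negative cells 681 were higher, against 1105 with array weights and 148 to 910 when 1 array was left out, and 507 lower, against 1045, 851 with only the gates compared and 39 to 851. In high against low cells 202 were higher, against 326 with quantile normalization, 97 with array weights, 73 with only the gates compared and 32 to 538, and 776 lower, against 510 with array weights, 426 with only the gates compared and 349 to 1201.

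The replicate numbers are not known to mark shared pools, and with 2 of them the block was kept as an alternative. Differences between replicates correlated over all genes at 0.103 for low and negative, 0.102 for high and negative and 0.0788 for high and low cells, and over the 37 genes at 0.635, 0.439 and 0.395. With the replicate block, Alpi (limma adjusted p = 0.0245), Rbp2, Fabp1, Enpep, Slc2a2, Slc6a19, Slc7a9, Abcg8 and Apoa1 were also called lower in high against negative cells (0.0188 to 0.0474). In low against negative cells Alpi (0.0415), Mgam, Fabp1, Abcg8 and Slc7a9 were also called lower (0.032 to 0.0499), and in high against low cells Sis, Rbp2 and Abcb1a were (0.0085 to 0.0379). With the replicate block 7 of the 37 were lower in high against low cells and 13 in low against negative cells, where Slc6a19 was called higher (limma adjusted p = 0.0389) and Abcg5 was not called (0.0523). The call of Abcg5 in high against low cells was also lost (0.0567).

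Signs turned with quantile normalization for Apoa4 in low against negative cells (0.07), Slc2a5 in high against negative cells (0.17) and, in high against low cells, Lct (0.17), Slc7a9 (0.12), Abcg8 (0.13), Fabp1 (0.18), Mttp (0.11), Vil1 (0.18) and Cdhr5 (0.07), and with median centring for Ada in high against negative cells (-0.06). With 1 array left out, log2 differences in low against negative cells ran from -0.47 to 0.17 for Sis, -1.14 to 0.38 for Treh, -0.55 to 0.22 for Slc15a1, -1.0 to 0.08 for Slc2a2, -0.07 to 0.75 for Slc2a5, -0.80 to 0.06 for Rbp2, -0.84 to 0.68 for Apoa4, -0.88 to 0.46 for Apoc3 and -0.01 to 0.38 for Cdhr2. In high against negative cells they ran from -0.26 to 0.16 for Slc2a5 and -0.43 to 0.49 for Ada. In high against low cells they ran from -1.97 to 0.89 for Alpi, -0.43 to 0.30 for Lct, -0.98 to 0.54 for Treh, -0.80 to 0.03 for Slc2a5, -0.84 to 0.61 for Slc7a9, -0.01 to 0.48 for Slc51a, -0.49 to 0.23 for Abcg8, -0.54 to 0.34 for Fabp1, -0.60 to 0.16 for Fabp2, -1.32 to 0.03 for Apoc3, -0.48 to 0.27 for Mttp, -0.19 to 0.15 for Vil1 and -0.28 to 0.06 for Cdhr5. Treh and Slc10a2 lay near background, where RMA differences are compressed.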
